A study of Homo sapiens with 3 samples.

Results

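The regions described here are the ChIP-seq peaks of codanin-1 and GATA1 on the distal long arm of chromosome 9 in K562 cells, around and beyond the ABL1 gene. They were taken by position alone, as the rows of both deposited peak lists (build hg19) whose midpoint lay on chromosome 9 from 128000000 up to 136000000, leaving out 133589000 to 133764000, the window that holds ABL1. This gave 228 of the 14365 peaks listed for codanin-1 and 199 of the 5164 listed for GATA1, or 427 of 19529 peaks in all.

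K562 is a human erythroleukaemia line, grown here with no treatment named in the labels, and all libraries came from this 1 line. Chromatin from 30000000 cells per sample, fixed for 10 minutes with 1% formaldehyde, was precipitated with the antibody Cod1 against an N-terminal part of codanin-1, with an antibody against GATA1 or with rabbit IgG. There was 1 library per antibody, which leaves every value without a replicate error, and intervals cover counting error only. The peak lists of Cod1 and GATA1 were used, and an IgG peak list was not analysed here. The files hold no read counts, which leaves the depth unknown, and fold enrichments are set side by side only within a list.

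Codanin-1 is the product of CDAN1, the gene mutated in congenital dyserythropoietic anaemia type I, and it binds the histone chaperone ASF1. GATA1 is the zinc finger transcription factor that directs erythroid and megakaryocytic gene expression. ABL1 encodes a tyrosine kinase, and in the Philadelphia translocation the part of chromosome 9 from within ABL1 towards the telomere is joined to BCR on chromosome 22. K562 cells are known to carry extra copies of the fused segment, and a second known fusion in this line joins NUP214, a nuclear pore gene distal to ABL1, to XKR3 on chromosome 22. In the GRCh38.p14 gene table, the named protein-coding genes that follow ABL1 towards the telomere are QRFP, FIBCD1, LAMC3, AIF1L, NUP214 and FAM78A, and those before it are EXOSC2, PRDM12 and FUBP3. Its build differs from that of the peaks, which were therefore not placed in genes. Copy number was not measured in these files, and its part in the results below was not tested.

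The peaks of both lists were crowded on the distal side of the ABL1 window and not on its proximal side. Under the rule below, the crowded block ended within the same 50 kb bin in each list. To place its edges, peak midpoints were counted in 50 kb bins laid outward from the ABL1 window, and the block was followed through bins with at least 3 peaks, passing over at most 1 bin with fewer. In both lists this gave chr9:133764001-134164000, which is 400 kb, or 8 bins on the distal side and 0 on the proximal side. The block held 131 codanin-1 peaks (57.5% of the codanin-1 regions described here) and 168 GATA1 peaks (84.4%). With 25 kb bins the distal edge came at 134039000 for codanin-1 and at 134014000 for GATA1. The shared edge depended on passing over 1 bin that held 0 GATA1 peaks. With at least 5 peaks per bin the GATA1 edge came at 134014000, and the codanin-1 edge stayed at 134164000. When peaks were chained over gaps of at most 50 kb, the edges were 134000900 for GATA1 and 134154012 for codanin-1. The block makes up 0.912% of the codanin-1 list and 3.25% of the GATA1 list.

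**Figure D1:**
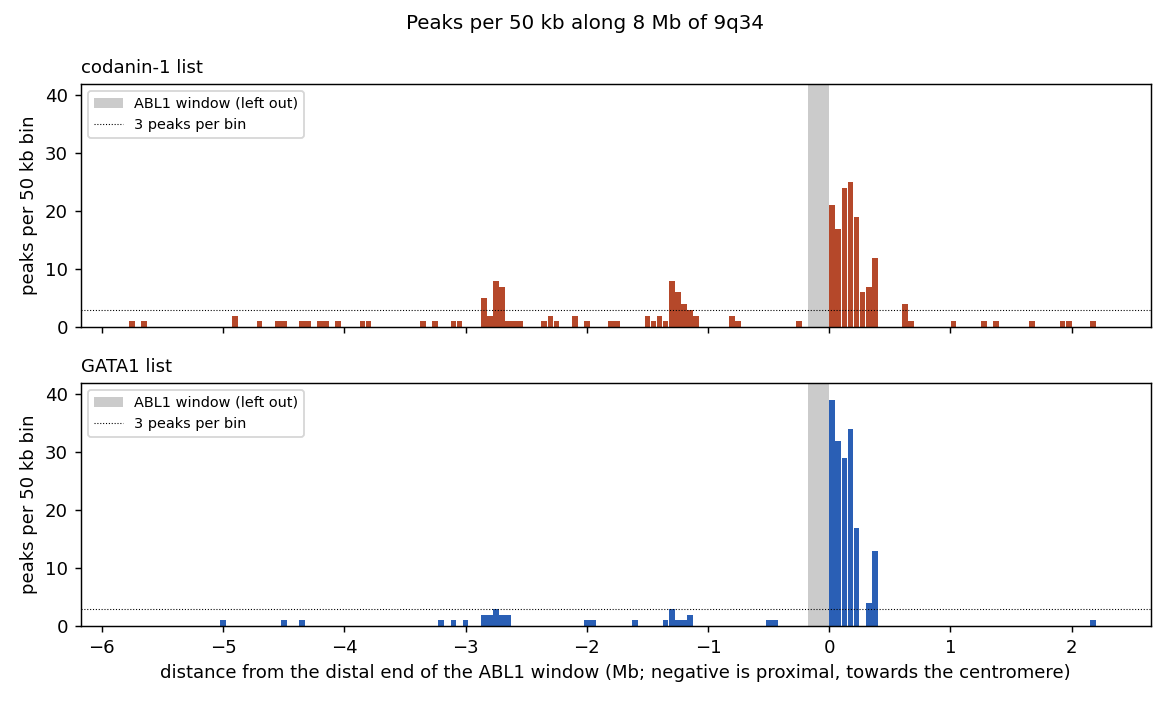
Peaks per 50 kb bin (y axis) against distance from the distal end of the ABL1 window in Mb (x axis), codanin-1 above and GATA1 below. The grey band is the ABL1 window left out, and the dotted line marks 3 peaks per bin. Both lists rise directly beyond the window and stop within 400 kb of it, and 2 lower groups of codanin-1 peaks stand on the proximal side.

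On the proximal side few peaks lay near ABL1. The codanin-1 list had 1 peak in the 500 kb before the window, at chr9:133508396-133508496 (101 bp, 5.08-fold), 80.5 kb from it. The GATA1 list had 2 there, the nearer at chr9:133305245-133305489, 283.5 kb from the window, which at 5.04-fold ranked first by fold among GATA1 peaks outside the block. The whole proximal side held 15.2 codanin-1 and 5.37 GATA1 peaks per Mb. Against these rates only the codanin-1 count was low, and the GATA1 count was near the rate of that side. Inside the window the first codanin-1 peak, at chr9:133608956-133609227, began 20.0 kb from its start, and the first GATA1 peak, at chr9:133609983-133610131, began 21.0 kb from its start. The change from sparse to crowded therefore fell inside the window that was left out. With the peaks of that window counted, the crowded run began at 133589001 for codanin-1 and at 133639001 for GATA1. The window itself held 37 codanin-1 and 15 GATA1 peaks, 211 and 85.7 per Mb.

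At the distal edge the last peaks of the block lay on top of each other. They were chr9:134153680-134154345 in the codanin-1 list (666 bp, 3.74-fold) and chr9:134153722-134154406 in the GATA1 list (685 bp, 4.02-fold). Beyond them the codanin-1 list was empty for 212 kb, up to chr9:134366370-134366509 (3.64-fold). The GATA1 list was empty for 1773 kb, up to chr9:135926969-135927178 (4.31-fold), its only peak between the block and the end of the region. The codanin-1 list had 12 peaks in that stretch, 4 of them in 1 bin at chr9:134364001-134414000. None of the 12 overlapped a GATA1 peak, which says little with only 1 GATA1 peak there. Outside the block as a whole, 4.12% of codanin-1 peaks overlapped one.

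Density in the block was 327.5 codanin-1 peaks per Mb (95% exact Poisson interval 273.8 to 388.6) and 420.0 GATA1 peaks per Mb (358.9 to 488.5). In the rest of the 8 Mb it was 13.1 per Mb (10.6 to 15.9) for codanin-1 and 4.18 per Mb (2.84 to 5.93) for GATA1. The block was placed with these same counts, so the ratios of 25.1 for codanin-1 and 100.6 for GATA1 are descriptions. There were 0.780 codanin-1 peaks for each GATA1 peak in the block, 3.13 in the rest of the 8 Mb and 2.78 over the whole lists. The GATA1 excess in the block turned when peaks within 1 kb were merged, which left 78 codanin-1 and 59 GATA1 peaks (1.32 for each).

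The block was not filled evenly, and the lists thinned at the same place. From the window outward the 8 bins held 21, 17, 24, 25, 19, 6, 7 and 12 codanin-1 peaks. The GATA1 bins in the same order held 39, 32, 29, 34, 17, 0, 4 and 13. In both lists the lowest of the first 5 bins, with 17 peaks, was above the highest of the last 3, with 12 and 13. The first 250 kb thus had 424 codanin-1 and 604 GATA1 peaks per Mb, and the last 150 kb had 167 and 113. The longest stretch without a GATA1 peak in the block ran from 134001006 to 134073248 (72.2 kb), and the bin at chr9:134014001-134064000 held 6 codanin-1 and 0 GATA1 peaks. The longest stretch without a codanin-1 peak, from 134058689 to 134089778 (31.1 kb), lay partly in the same place. Over the whole block, these stretches included, the median gap was 1243 bp between neighbouring codanin-1 peaks and 675 bp between neighbouring GATA1 peaks. Counts of the lists over the 8 bins had a Pearson r of 0.89 and a Spearman rho of 0.83, given as a description since the bins share libraries and any difference in read depth along the block. Over the 149 bins outside the block these were 0.69 and 0.36, so the lists also varied together there.

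Away from the block the 8 Mb held 97 codanin-1 and 31 GATA1 peaks, and they too were unevenly spread. Of 149 bins outside the block, 97 held no codanin-1 peak and 127 no GATA1 peak, and 8 and 2 bins respectively reached 3 peaks. All but 1 of these bins lay in a pair of groups on the proximal side, each 200 kb long and each present in both lists. The group at chr9:130889000-131088999 held 22 codanin-1 peaks and 9 GATA1 peaks. The group at chr9:132439000-132638999 held 21 and 7. Median fold enrichments there were 3.77 and 3.93 for codanin-1 and 4.06 and 4.14 for GATA1. The bin with most peaks outside the block held 8 codanin-1 peaks, against 25 in the fullest bin of the block.

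Peaks of the block were wider than those around it. The median codanin-1 width was 407 bp in the block (95% order-statistic interval 359 to 498) and 239 bp outside it (159 to 302), with 220 bp over the whole list. The median GATA1 width was 293.5 bp (258 to 337) in the block, 169 bp outside (upper bound 209) and 168 bp over the list. In both lists the intervals inside and outside did not overlap. They treat neighbouring peaks of 1 library as independent, so this is a description and not a test. A width of at least 1 kb was reached by 17 of 131 codanin-1 peaks in the block (13.0%, 95% exact binomial interval 7.74 to 20.0) and by 1 of 97 outside it (1.03%), where the whole list has 1.48%. For GATA1 it was reached by 18 of 168 in the block (10.7%, 6.48 to 16.4) and 0 of 31 outside (upper limit 11.2%), where the whole list has 2.46%. The block thus supplied 8.02% of all codanin-1 peaks of that width and 14.2% of all such GATA1 peaks. Each of these 35 wide peaks ended within 226.3 kb of the ABL1 window, and the last 3 bins held none.

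**Figure D2:**
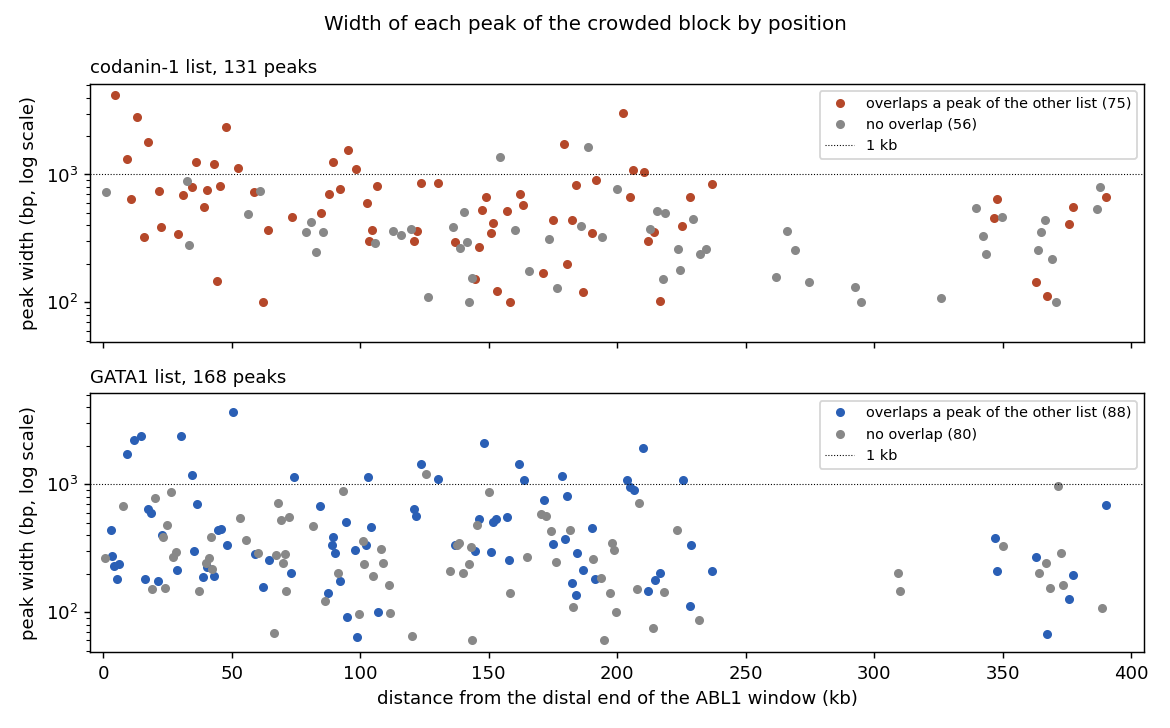
Width of each peak of the block in bp (y axis, log scale) against distance from the distal end of the ABL1 window in kb (x axis), codanin-1 above and GATA1 below. Coloured points overlap a peak of the other list, grey points do not, and the dotted line marks 1 kb, above which all points lie in the first 250 kb.

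The widest codanin-1 peak of the block was chr9:133766486-133770642, with 4157 bp, and it overlapped 5 GATA1 peaks, the most for any codanin-1 peak of the block. The next were chr9:133964868-133967920 (3053 bp), chr9:133775773-133778581 (2809 bp), chr9:133810552-133812888 (2337 bp) and chr9:133780602-133782389 (1788 bp). The widest GATA1 peak was chr9:133812586-133816240, with 3655 bp, and its ends touched codanin-1 peaks on both sides. It was followed by chr9:133777405-133779810 (2406 bp), chr9:133793212-133795582 (2371 bp), chr9:133774874-133777083 (2210 bp) and chr9:133911203-133913299 (2097 bp). All 10 overlapped a peak of the other list. A wide peak can meet another more easily, and the part of width in this was not tested. Fold enrichments of these 10 peaks ran from 3.48 to 3.83 for codanin-1 and from 3.94 to 4.41 for GATA1. The medians were 3.53 and 3.95 in the block and 3.97 and 4.18 over the whole lists. Outside the block the widest peak of either list was the codanin-1 peak chr9:132455767-132457646, with 1880 bp.

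Fold enrichment, the authors' ratio of a library to the background of the peak caller, was lower in the block than around it. The codanin-1 median was 3.53 in the block (3.46 to 3.58) and 3.95 outside (3.88 to 4.08). The GATA1 median was 3.95 (3.86 to 4.02) and 4.15 (4.06 to 4.35). A fold of at least 5 was reached by 1 of 131 codanin-1 peaks in the block, against 6 of 97 outside it and 4.78% of the whole list. For GATA1 it was reached by 0 of 168 in the block (upper limit 2.17%) and 1 of 31 outside, against 5.25% of the list. The −log10 q did not show the same order: its codanin-1 median was 1.68 in the block (1.59 to 1.78) and 1.54 outside (1.48 to 1.70), and its GATA1 median was 1.67 (1.59 to 1.74) and 1.45 (1.37 to 1.62). These intervals overlapped in both lists.

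**Figure D3:**
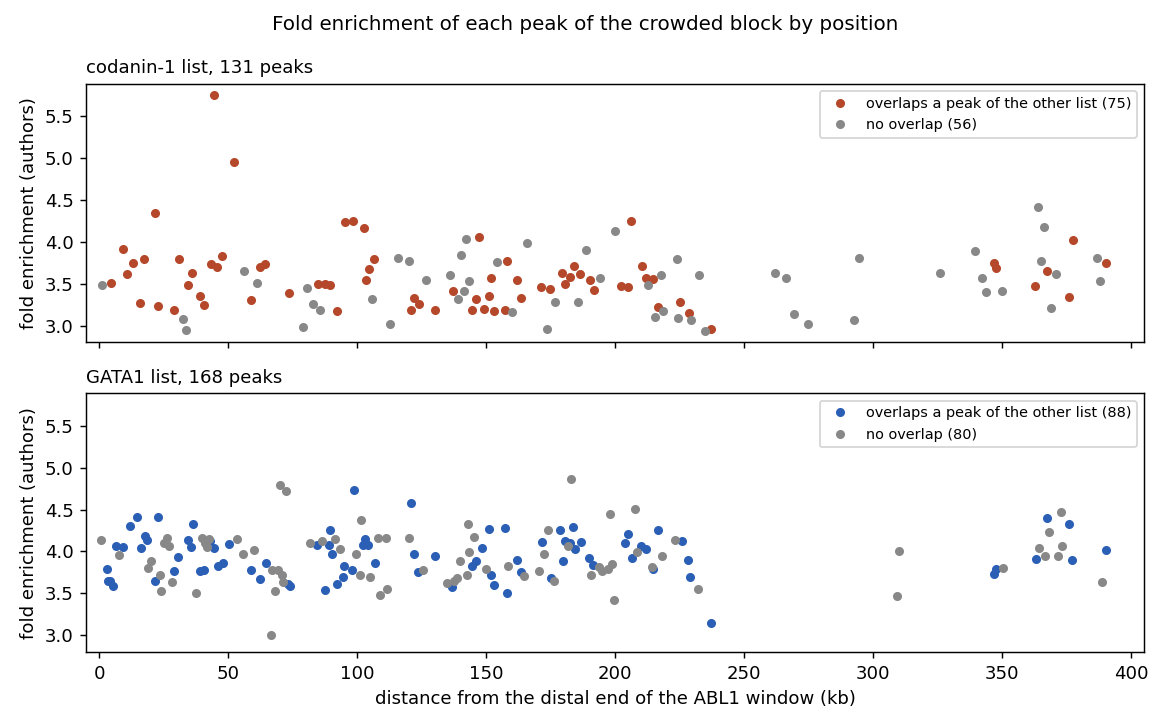
The authors' fold enrichment of each peak of the block (y axis) against distance from the distal end of the ABL1 window in kb (x axis), codanin-1 above and GATA1 below. Coloured points overlap a peak of the other list and grey points do not; most points lie between 3 and 4.5, with the codanin-1 peak at 5.74 standing apart.

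The codanin-1 peak of highest fold enrichment in the block was chr9:133808386-133808532, a peak of 147 bp with a fold of 5.74 and a −log10 q of 6.22. It was followed by chr9:133815722-133816846 (4.95-fold), chr9:134127527-134127782 (4.42-fold), chr9:133785257-133785994 (4.34-fold) and chr9:133861832-133862945 (4.25-fold). Of these 5, the third lay 256 bp from a GATA1 peak and the other 4 overlapped one. The highest GATA1 folds were those of chr9:133946723-133946832 (4.87-fold), chr9:133834017-133834260 (4.79-fold), chr9:133862681-133862744 (4.74-fold), chr9:133836129-133836679 (4.72-fold) and chr9:133884463-133885097 (4.58-fold). Of those, 2 overlapped a codanin-1 peak. Among all peaks of the block, 57.3% of codanin-1 and 52.4% of GATA1 peaks overlapped the other list. The second of the 5 GATA1 peaks, at 7.82, had the highest −log10 q of any GATA1 peak described here. It was the only one to reach 5, a level that 5.27% of the GATA1 list reached. The first codanin-1 peak was likewise the only one of its list here to reach 5, where the whole list has 0.188%.

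Outside the block the codanin-1 peaks of highest fold were narrow, from 105 bp to 132 bp, and the GATA1 peaks ranged from 60 bp to 245 bp. For codanin-1 they were chr9:128857534-128857643 (5.73-fold), chr9:130538850-130538981 (5.46-fold), chr9:132644788-132644892 (5.45-fold), chr9:130894957-130895073 (5.15-fold) and chr9:129227655-129227778 (5.09-fold). For GATA1 they were the peak at 133305245, chr9:131739791-131739850 (4.76-fold), chr9:130753215-130753274 (4.55-fold), chr9:130570764-130570899 (4.44-fold) and chr9:131021748-131021870 (4.40-fold). None of these 10 overlapped a peak of the other list. Of all peaks outside the block, 4.12% of codanin-1 and 12.9% of GATA1 peaks did, so none among so few says little. Among the codanin-1 peaks the distance to the nearest GATA1 peak ran from 8316 bp to 93179 bp.

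Most peaks in the block overlapped the other list, and few did outside it. Of the 131 codanin-1 peaks of the block, 75 overlapped a GATA1 peak by at least 1 bp (57.3%, 95% exact binomial interval 48.3 to 65.9), against 4 of 97 outside it (4.12%, 1.13 to 10.2) and 6.60% of the whole list. Of the 168 GATA1 peaks of the block, 88 overlapped a codanin-1 peak (52.4%, 44.5 to 60.1), against 4 of 31 outside it (12.9%, 3.63 to 29.8) and 20.2% of the whole list. The intervals inside and outside did not overlap in either list, but they treat neighbouring peaks as independent, which they are not, so this is a description. Crowding and width raise an overlap by themselves: codanin-1 peaks covered 19.3% of the length of the block and GATA1 peaks 19.6%, against 0.380% and 0.0746% outside it.

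**Figure D4:**
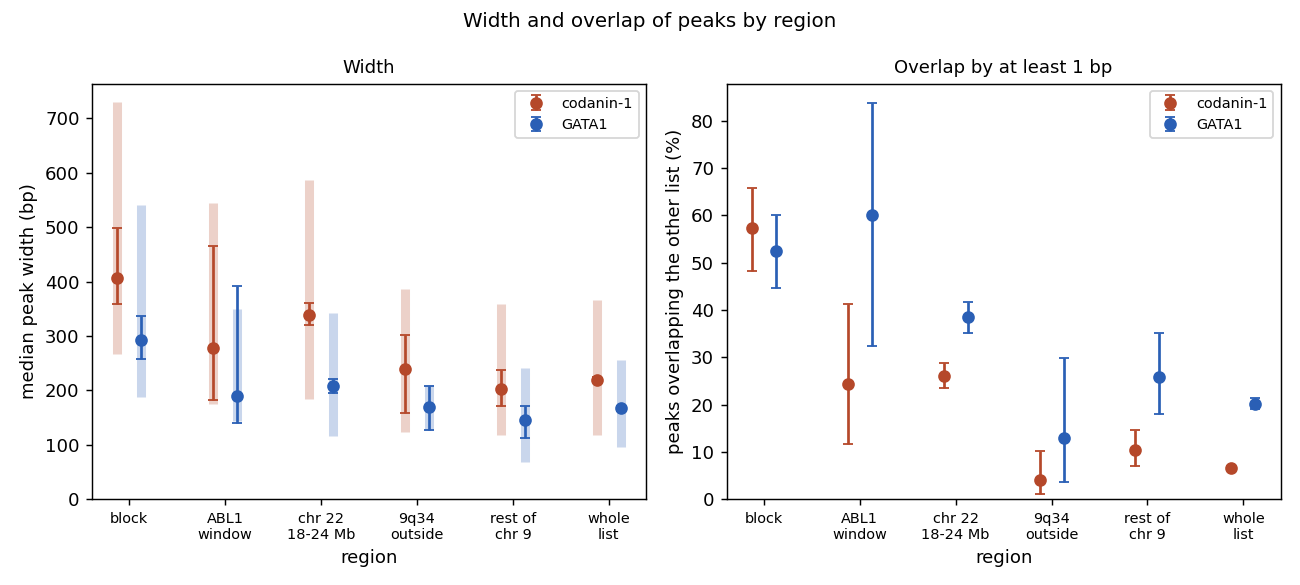
Left, median peak width in bp with its 95% interval (error bars) and the quartiles (pale bars), by region. Right, percent of peaks that overlap the other list by at least 1 bp, with 95% exact intervals. Codanin-1 is red and GATA1 blue, and in both panels the block lies above the rest of the 8 Mb of 9q34 in each list.

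Counted by bases, ground under a GATA1 peak was more often under a codanin-1 peak than the rest of the block was, with a smaller contrast where the block was most crowded. Of the bases under a GATA1 peak in the block 37.3% were also under a codanin-1 peak, against 14.9% of its other bases. In the first 250 kb these shares were 37.8% and 23.2%, and in the last 150 kb they were 30.1% and 4.89%. The contrast was not particular to the block. The shares were 7.80% and 0.374% in the rest of the 8 Mb and 52.8% and 7.79% in the ABL1 window. On chromosome 22 from 18 to 24 Mb they were 33.7% and 7.36%. Relative to the other bases, the contrast was larger in each of these than in the block as a whole. In all, 31.6% of the block lay under a peak of at least 1 list and 7.33% under both. By peak, 64.2% of the codanin-1 list overlapped in the first 250 kb (54.3 to 73.2) and 28.0% in the last 150 kb (12.1 to 49.4). For GATA1 the shares were 53.6% (45.4 to 61.8) and 41.2% (18.4 to 67.1), with intervals that overlapped.

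The overlaps were mostly partial. The 75 codanin-1 and 88 GATA1 peaks formed 93 pairs with a median of 201 bp in common and 255 bp between midpoints. In 28 pairs (30.1%, 21.0 to 40.5) the GATA1 peak lay wholly within the codanin-1 peak, and in 16 the reverse held. There were 14 codanin-1 peaks that met several GATA1 peaks and 5 GATA1 peaks that met several codanin-1 peaks. Peaks of the block that did not overlap lay at a median distance of 452 bp from the other list for codanin-1 and 459 bp for GATA1. Over the whole lists these distances were 114560 bp and 9141 bp, and in the last 150 kb of the block 3665 bp and 475 bp. Crowding shortens such distances by itself: neighbouring peaks within a list of the block were a median of 1243 bp and 675 bp apart. Overlap and fold enrichment were not ordered within the block: the codanin-1 median was 3.54 for overlapping peaks (3.46 to 3.62) and 3.52 for the others (3.32 to 3.60), and the GATA1 medians were 3.94 and 3.95.

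Of the pairs in the block, the one with the highest codanin-1 fold joined the peak at 133808386 to chr9:133808324-133808763 (4.04-fold for GATA1), which contained it whole. The next joined the peak at 133815722 to the widest GATA1 peak (4.09-fold) over 519 bp. The third joined the peak at 133785257 to chr9:133785335-133785509 (3.64-fold for GATA1). The remaining pairs shared the codanin-1 peak at 133861832, which met chr9:133861686-133861991 (3.78-fold for GATA1) near its start and chr9:133862681-133862744 (4.74-fold) near its end. The last of these was also among the 5 GATA1 peaks of highest fold in the block. Outside the block there were 4 pairs, all on the proximal side. Their codanin-1 members were chr9:132489109-132489227 (4.47-fold), chr9:131103556-131103927 (3.80-fold), chr9:131005364-131006143 (3.78-fold) and chr9:131057616-131057872 (3.76-fold), with GATA1 folds from 4.23 to 4.38. All but the second lay in the pair of proximal groups.

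Few of the overlaps in the block joined peaks of higher significance. With both lists held to a −log10 q of at least 2, the block had 31 of its 131 codanin-1 peaks (22.9% of the whole list pass) and 42 of its 168 GATA1 peaks (27.0% of the list pass). Of these, 2 of each overlapped, or 6.45% and 4.76%. Outside the block 23 codanin-1 and 2 GATA1 peaks passed, and none overlapped. Over the whole lists the same threshold gave 6.21% and 16.1%. Requiring 0.5 of both lengths left 22 overlapping peaks in each list of the block, 16.8% for codanin-1 and 13.1% for GATA1, where the whole lists have 2.07% and 5.77%. Allowing a distance of 1 kb raised the block's counts to 117 codanin-1 peaks (89.3%) and 147 GATA1 peaks (87.5%), where the whole lists have 10.5% and 35.7%.

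In the adjoining ABL1 window 9 of 37 codanin-1 peaks overlapped (24.3%, 11.8 to 41.2), below the block, and 9 of 15 GATA1 peaks did (60.0%, 32.3 to 83.7), an interval that holds the share of the block. Median widths in the window were 278 bp (183 to 465) for codanin-1 and 190 bp (140 to 392) for GATA1, and median folds were 3.50 (3.40 to 3.58) and 3.81 (3.57 to 4.08). All 4 of these intervals overlapped those of the block. A width of at least 1 kb was reached in the window by 3 of 37 codanin-1 peaks (8.11%, 1.70 to 21.9), an interval that overlaps that of the block. None of its 15 GATA1 peaks reached it (upper limit 21.8%).

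A second crowded stretch lies on chromosome 22 from 18 to 24 Mb, which holds BCR. It had 178.5 codanin-1 and 147.0 GATA1 peaks per Mb, lower than in the block, but it was bounded in whole Mb while the edges of the block were placed by its counts, so these densities are not a like comparison. Codanin-1 width was 339 bp on chromosome 22 (320 to 361), an interval that touches that of the block, whereas GATA1 width was 208 bp (196 to 221), below that of the block. A width of at least 1 kb was reached there by 94 of 1071 codanin-1 peaks (8.78%, 7.15 to 10.6), an interval that overlaps that of the block. For GATA1 it was reached by 12 of 882 (1.36%, 0.705 to 2.36), below the block. Overlap on chromosome 22 was 26.1% for codanin-1 (23.5 to 28.9) and 38.4% for GATA1 (35.2 to 41.7), both below the shares of the block beyond their intervals. Peaks covered 8.40% and 3.98% of that stretch, less than of the block. The median codanin-1 fold there was 3.73 (3.70 to 3.75) and the median GATA1 fold 4.07 (4.05 to 4.10), both above those of the block.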

How the data were processed

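The authors' peak lists of the Cod1 and GATA1 ChIP-seq libraries were used as deposited. BWA, MACS2 and the build hg19 are named, without versions or roles, per the submitters' processing notes. What background, threshold, filters or pooling were used is not given in the sources used here. Every deposited file has 9 columns and no header. The fold enrichment (a ratio) and the −log10 p and −log10 q (the p-value and the q-value) are the authors' deposited values. The deposited score repeats the −log10 q and was not used. The lowest deposited −log10 q was 1.01 for codanin-1 and 1.00 for GATA1, so weaker sites are not listed.

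Coordinates are written from 1. Density carries exact Poisson intervals, shares exact Clopper-Pearson intervals and medians order-statistic intervals, all at 95%. Neighbouring peaks are not independent, so whether intervals overlap is a description throughout. No test was run, since each antibody has 1 library. The regions and settings were chosen with earlier results of these data known. The width of 1 kb and the division of the block into 5 and 3 bins were chosen later. Named were the 5 peaks of highest fold inside and outside the block, the 5 widest in it, those at its edges and the 5 pairs of highest codanin-1 fold on each side. Without an hg19 genome here, no sequence is shown. Python 3.11.15 with numpy 2.4.6, scipy 1.17.1 and pandas 2.3.3 was used. The search for edges was tested on simulated data with peaks drawn evenly over a block. A block with a thin or empty stretch, as in the GATA1 list, was not simulated.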

Additional observations from a re-analysis of the deposited data

How the results depend on the processing

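The block was denser, its peaks wider and more often overlapping, and their fold lower than outside it under each setting run, but at a −log10 q of at least 2 that rests on 2 overlapping peaks in each list inside and on 23 codanin-1 and 2 GATA1 peaks outside, too few to compare. The median −log10 q was also higher inside, except for GATA1 at a −log10 q of at least 2 (2.20 inside, 2.32 outside). Of 140 recomputed values 99 stayed within the interval of the value reported (counts within 1.5 times, edges within 1 bin) and 41 moved. The 99 include every value of the setting that took the block of either list in place of the block common to both. Both lists gave the same block, so that setting could not move a value and says nothing on stability. The distal edge moved to 134039000 for codanin-1 and 134014000 for GATA1 with 25 kb bins. For GATA1 it also moved to 134014000 with at least 5 peaks per bin, with a −log10 q of at least 2 or with peaks within 1 kb merged, and to 134000900 when peaks were chained over gaps of at most 50 kb. The start moved to 133589001 (codanin-1) and 133639001 (GATA1) with the ABL1 window included. In the other settings the start could not fall within that window, so the unmoved starts among the 99 repeat its edge and say little on stability. Peaks in the block so defined fell to 31 and 39 at a −log10 q of at least 2, and to 78 and 49 after merging. In the block as reported, the −log10 q threshold gave 77.5 and 105 peaks per Mb, and merging gave 195 and 147.5. Outside it the q threshold gave 3.10 and 0.269 per Mb. At that threshold overlap was 6.45% and 4.76% inside and 0% in both lists outside. With 0.5 of both lengths it was 16.8% and 13.1% inside and 1.03% and 3.23% outside. Within 1 kb it was 89.3% and 87.5% inside, and merging gave 69.5% for GATA1. Median width at the q threshold was 543 bp inside and 124 bp outside for codanin-1, and after merging 859.5 bp and 942 bp inside. Median fold at the q threshold was 3.89 and 4.26 inside and 4.66 and 4.90 outside, and codanin-1 −log10 q was 2.39 inside and 2.31 outside. The threshold itself leaves fewer peaks, and merging joins neighbours. No paired analysis was possible because there is 1 library per antibody, and for that reason no library could be left out. Depth is unknown, so sites below the caller's threshold cannot be counted.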
